A study of Saccharomyces cerevisiae with 8 samples.

Results

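The genes described here are the 31 ORFs of *Saccharomyces cerevisiae* that make ergosterol from acetyl-CoA, pass electrons to its oxygenases, store sterol as steryl esters or release it from them, and switch sterol genes on. They were chosen by name from knowledge of the pathway, with earlier results of these data known. All 31 had an entry among the 6152 ORFs of the array, and 30 of them had a value in each of the 8 conditions. The exception was IDI1, which had no value in Temohaya-MI26 late without ethanol. By role, 9 members carry acetyl-CoA to farnesyl pyrophosphate, 5 are oxygen-dependent enzymes of the sterol branch, 9 are other proteins of that branch, 2 are electron donors, 4 form or hydrolyse steryl esters and 2 are regulators.

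The study grew 2 natural strains in GPY, a rich glucose medium, with 10% (v/v) or without ethanol and hybridised their cDNA to spotted yeast arrays. CECT10094, from flor wine, tolerates ethanol well and is called PE35M in the sample labels, a name that the study's methods correct. Temohaya-MI26, from agave fermentation and called TEMOHAYA-26 in the labels, is the more sensitive strain. Each strain was sampled late and at 1 h after inoculation. The late samples were CECT10094 at 28 h with 10% ethanol and at 10 h without, and Temohaya-MI26 at 40 h with 10% ethanol and at 10 h without, so that late ethanol and hours of culture cannot be told apart. The labels place the late samples in the exponential phase and the study's text after it. The labels name no engineered allele in either strain, 1 colony of each strain was grown up, and each strain stands for itself alone.

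Ergosterol is the main sterol of yeast membranes, as cholesterol is of animal ones, and sterol content is among the membrane traits long tied to ethanol tolerance. Its synthesis runs from acetyl-CoA through mevalonate and farnesyl pyrophosphate to squalene, then through lanosterol to the finished sterol. Several of the later steps consume molecular oxygen, so cells short of oxygen cannot complete the pathway. Surplus sterol is esterified to fatty acids and kept in lipid droplets. Upc2 and Ecm22 are zinc cluster transcription factors that bind the promoters of many of these genes.

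Each condition had 1 value per ORF, the log2 ratio of the sample (Cy5) to a pool of all samples (Cy3), which the authors took as the median of 3 replicate slides. The study's methods take each slide from a separate culture, but the slides are not separate in these values, so no error between cultures could be given, and precision is limited by how few arrays there were. A ratio says how a gene stood among the conditions, and ratios of different genes cannot be compared as amounts. Between 5612 and 6115 ORFs had a value in a condition, and the deposited medians of the columns lay between -0.22 and 0.32. Every column was therefore centred on its own median, and all values below are on that centred log2 scale. Deposited columns correlated between -0.356 (Temohaya-MI26 with ethanol and CECT10094 without, both at 1 h) and 0.823 (CECT10094 and Temohaya-MI26 late without ethanol), and the labelling of all samples with Cy5 sets the direction. In these whole cultures, fewer cells with an mRNA and less mRNA per cell cannot be told apart. Paralogous members (HMG1 and HMG2, ARE1 and ARE2, UPC2 and ECM22) may share hybridising cDNA, which was not assessed.

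The set as a whole went opposite ways at the 2 stages in these medians. Late, the members' median ethanol difference (10 minus 0%) was 0.345 in CECT10094 and 0.13 in Temohaya-MI26, where all ORFs of those strains had -0.036 and -0.065. At 1 h it was -0.23 in CECT10094 and -0.74 in Temohaya-MI26, where all ORFs had 0.052 and 0.013. Without centring, the medians at 1 h and late in CECT10094 and late in Temohaya-MI26 changed sign, since the medians of all ORFs had shifted too, and the Temohaya-MI26 median at 1 h did not. The most uniform condition was Temohaya-MI26 at 1 h with ethanol, where 27 of 31 members lay below the array median, against 5 of 31 in the same strain without ethanol. In CECT10094 at 1 h, 11 of 31 members lay below the array median with ethanol and 5 of 31 without.

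**Figure D1:**
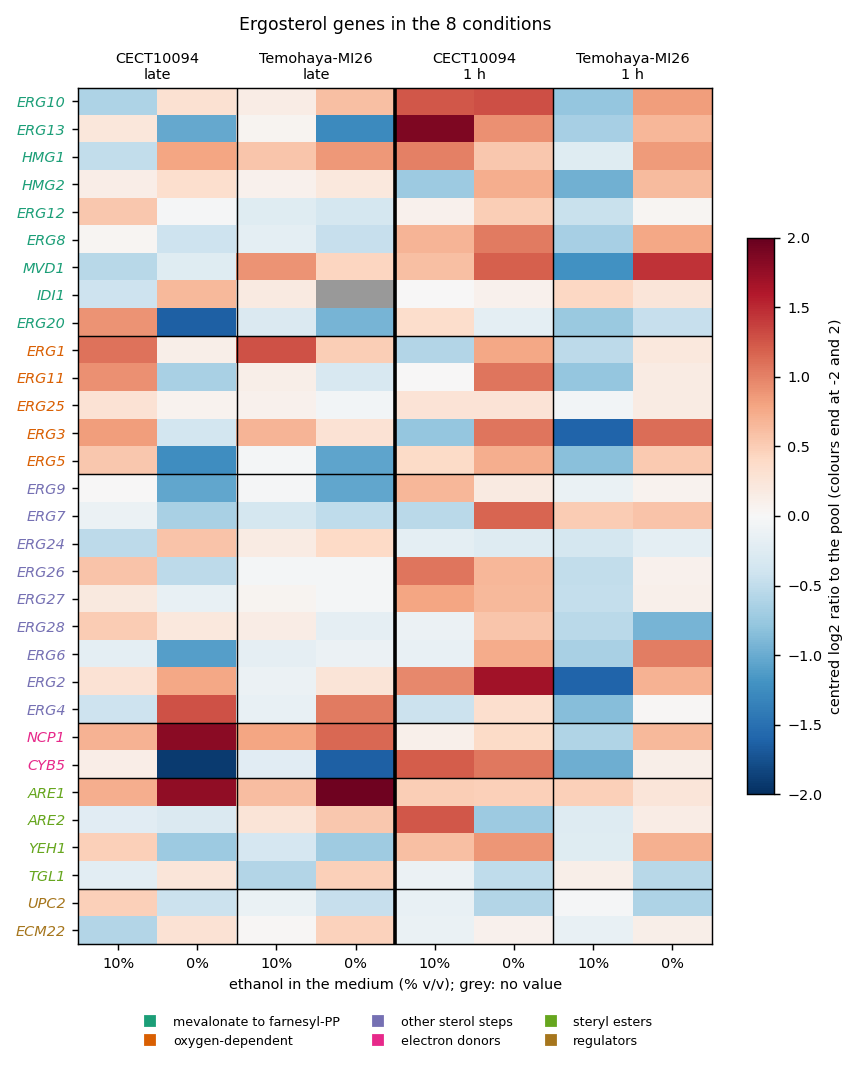
Centred log2 ratio to the pool of the 31 members (rows, grouped by role with coloured names) in the 8 conditions (columns, late stage left of 1 h, 10% left of 0% ethanol), 1 value per condition; red is above and blue below the array median, and colours end at -2 and 2. The column of Temohaya-MI26 at 1 h with ethanol is mostly blue, with 27 of 31 members below 0.

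Single differences were set against limits at the mean of all ORFs plus or minus 1.96 SD, here of the centred differences. The multiple is the study's own, but its methods also apply a false discovery rate, which was not applied here. Such limits mark the ends of a distribution and are not a test. Late, CECT10094 had 3 of 31 members above the upper limit of 1.70 (ERG20, ERG5 and CYB5), where 2.76% of all ORFs lay above it, and 0 below the lower limit of -1.79, where 2.85% did. Temohaya-MI26 late had 0 of 30 members above 1.43 and 0 below -1.53, where 3.04% and 2.51% of all ORFs lay. At 1 h, CECT10094 had 1 of 31 members above 1.92 (ARE2), where 2.18% of all ORFs lay, and 0 below -1.90, where 3.53% did. Temohaya-MI26 at 1 h had 3 of 31 members below -2.12 (MVD1, ERG3 and ERG2), where 3.08% of all ORFs lay, and 0 above 2.16, where 2.74% did. The members just inside a limit were CYB5 late in Temohaya-MI26 (1.41), ERG4 late in CECT10094 (-1.70) and ERG3 at 1 h in CECT10094 (-1.83).

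**Figure D2:**
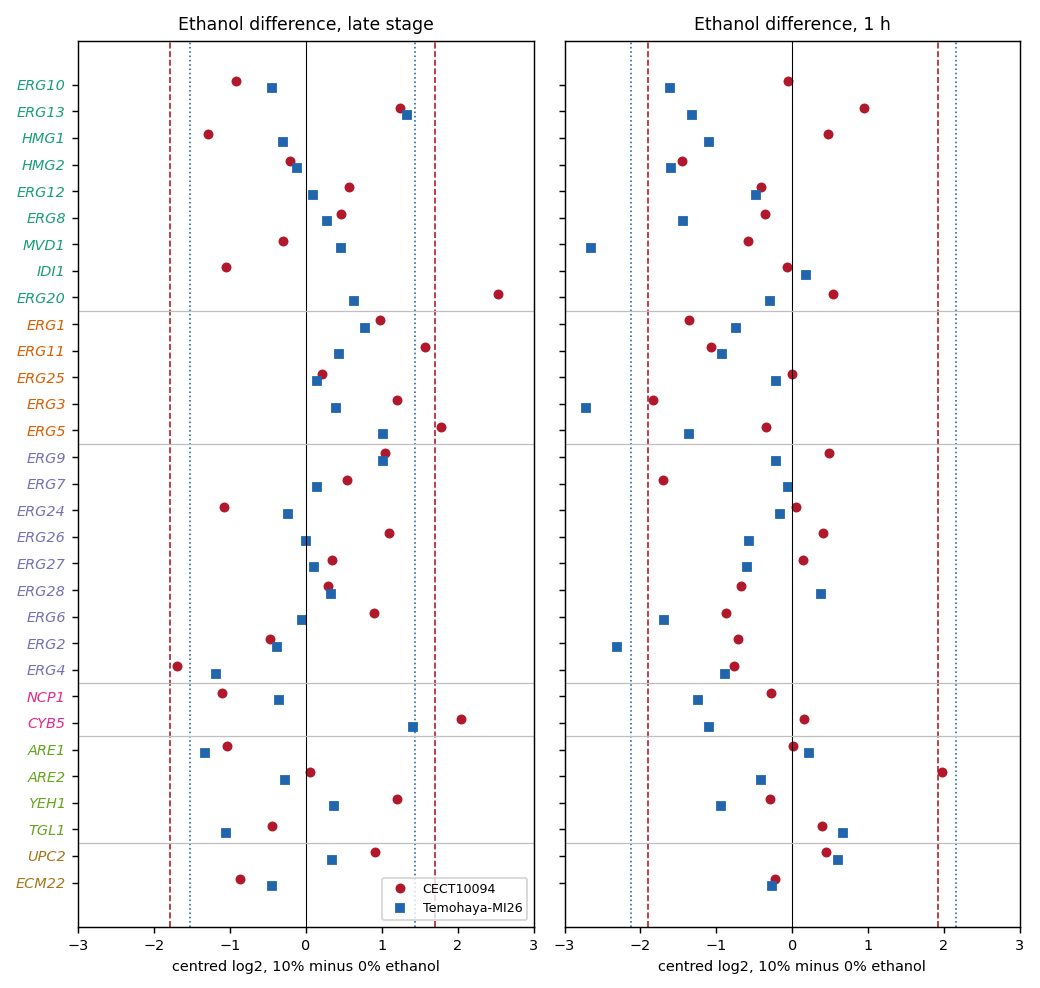
Ethanol difference (10 minus 0%, centred log2, x axis) of each member late (left) and at 1 h (right) in CECT10094 (red circles) and Temohaya-MI26 (blue squares); dashed red and dotted blue lines are each strain's limits, and each point is 1 difference of 2 values. Late, the 5 oxygen-dependent members (orange names) lie right of 0 in both strains, and at 1 h the members farthest left are ERG3, MVD1 and ERG2 of Temohaya-MI26.

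The ethanol change common to both strains was tested with limma, which takes the other strain as the only repeat, so its p sets a shared change against how far the strains differ. Late, 2 of 30 members rose (ERG5 and CYB5) and 2 fell (ERG4 and ARE1) at a Benjamini-Hochberg adjusted p under 0.05, where 2.50% of all ORFs rose and 4.40% fell. At 1 h, 6 of 31 members fell (ERG3, HMG2, ERG2, ERG6, MVD1 and ERG1) and 0 rose, where 10.7% of all ORFs fell and 10.1% rose. At an unadjusted p under 0.05, 9 members were higher and 3 lower late, and 0 were higher and 10 lower at 1 h. Shares of all ORFs at that unadjusted threshold were not counted for these tests, here or below, so such counts have no background. The change with ethanol was higher late than at 1 h for 7 of 30 members (ERG3, ERG5, ERG11, ERG1, CYB5, ERG6 and HMG2), where 9.46% of all ORFs were higher, and lower for 0, where 9.05% were (11 higher and 2 lower at an unadjusted p under 0.05). Without the Temohaya-MI26 pair of columns at 1 h, 0 members passed at 1 h or for late minus 1 h. The fitted changes at 1 h of MVD1, ERG2 and ERG6 were then smaller (-0.58, -0.71 and -0.88), while those of HMG2 (-1.45), ERG1 (-1.35) and ERG3 (-1.83) stayed below -1. Without the CECT10094 pair at 1 h, the fitted change at 1 h is that of Temohaya-MI26 alone, not a change common to both strains. It was -2.715 for ERG3, -2.65 for MVD1, -2.305 for ERG2, -1.68 for ERG6, -1.59 for HMG2 and -0.74 for ERG1. For late minus 1 h, the fitted values of the 7 members without that pair lay between 1.42 (HMG2) and 3.51 (ERG3). Without centring, ERG3 and HMG2 fell at 1 h and ERG3 alone was higher for late minus 1 h. The 4 late calls were all lost after quantile normalization, and without the CECT10094 late pair or either pair at 1 h. The fitted late changes were the same without a pair at 1 h, and after quantile normalization they were 1.45 for ERG5, 1.74 for CYB5, -1.25 for ERG4 and -0.32 for ARE1.

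In the mevalonate segment, the strains parted at 1 h for some members and not for others. Of its 9 members, 8 had a negative difference at 1 h in Temohaya-MI26, with a median of -1.32, against 6 of 9 and a median of -0.0715 in CECT10094, which became 3 of 9 and 0.301 without centring. Of all ORFs, 50.6% had a positive centred difference at 1 h in Temohaya-MI26 and 52.8% in CECT10094. ERG10 (YPL028W, acetoacetyl-CoA thiolase, the first step) differed by -0.0535 in CECT10094 and by -1.61 in Temohaya-MI26 at 1 h. ERG13 (HMG-CoA synthase) differed by 0.95 in CECT10094 and by -1.32 in Temohaya-MI26 at that time. HMG1, the reductase isozyme that carries most of the activity with oxygen present, differed by 0.48 in CECT10094 and by -1.10 in Temohaya-MI26. In the same order of strains, ERG8 (-0.35 and -1.44), MVD1 (-0.58 and -2.65) and ERG20 (0.54 and -0.29) were also lower in Temohaya-MI26. HMG2 (-1.45 and -1.59) and ERG12 (-0.41 and -0.48) had like differences in both strains. IDI1 (-0.0715 and 0.18) was higher in Temohaya-MI26. Whether the ethanol difference itself differed between the strains within 1 stage could not be tested with 1 value per condition.

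HMG2 (YLR450W), the other HMG-CoA reductase, had like values in both strains. Late, it stood at 0.13 in CECT10094 and 0.081 in Temohaya-MI26 with ethanol, against 0.34 and 0.20 in those strains without. The values at 1 h were -0.73 in CECT10094 and -0.97 in Temohaya-MI26 with ethanol, against 0.72 and 0.625 without. Both values with ethanol at 1 h lay below its 6 other values. HMG2 fell at 1 h by 1.52 (SE 0.29, adjusted p = 0.0067), and its change was 1.35 higher late than at 1 h (SE 0.41, adjusted p = 0.0485). The latter call was lost in 6 of the 8 other settings tried.

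MVD1 (YNR043W), which decarboxylates mevalonate pyrophosphate, had the second most negative member difference at 1 h. Late, MVD1 stood at -0.55 in CECT10094 and 0.89 in Temohaya-MI26 with ethanol, against -0.24 and 0.425 without. At 1 h the values were 0.61 in CECT10094 and -1.21 in Temohaya-MI26 with ethanol, against 1.19 and 1.44 without. Temohaya-MI26 thus held both its highest and its lowest value, at 1 h. It fell at 1 h by 1.62 over both strains (SE 0.46, adjusted p = 0.0359), and differed by -0.58 in CECT10094 and by -2.65 in Temohaya-MI26.

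ERG20 (YJL167W), farnesyl pyrophosphate synthase, had the highest ethanol difference of any member, late in CECT10094. CECT10094 late stood at 0.905 with ethanol, against -1.63 without, a difference of 2.535. Temohaya-MI26 late stood at -0.29 with ethanol, against -0.92 without, a difference of 0.63. At 1 h its values were 0.35 with ethanol, against -0.20 without, in CECT10094, and -0.75 with ethanol, against -0.46 without, in Temohaya-MI26. The late change common to both strains was 1.58 (SE 0.45, adjusted p = 0.0657) and did not pass. ERG13 was the only member of the segment with a late difference above 1 in both strains, 1.24 in CECT10094 and 1.32 in Temohaya-MI26, with an adjusted p of 0.127 for the common change of 1.28. The remaining members (ERG12, mevalonate kinase, ERG8, phosphomevalonate kinase, and IDI1, the isomerase of isopentenyl pyrophosphate) had late differences between -1.05 and 0.57. Of the 8 members tested late by limma, 0 rose and 0 fell, where 2.50% of all ORFs rose and 4.40% fell. At an unadjusted p under 0.05, with no share of all ORFs counted, 2 were higher and 0 lower.

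The ethanol differences of 4 oxygen-dependent enzymes had opposite signs at the 2 stages. All 5 had a positive difference late in both strains, and the medians were 1.19 in CECT10094 and 0.43 in Temohaya-MI26, although ERG25 was negative late in both strains without centring. Of all ORFs, 48.2% had a positive centred difference late in CECT10094 and 45.5% in Temohaya-MI26. At 1 h, the differences were negative for 4 of 5 members in CECT10094 (median -1.07, 3 of 5 without centring) and for 5 of 5 in Temohaya-MI26 (median -0.93). Of all ORFs, 52.8% had a positive centred difference at 1 h in CECT10094 and 50.6% in Temohaya-MI26. For 4 of the 5 oxygen-dependent members the change with ethanol was higher late than at 1 h by limma, where 9.46% of all ORFs were higher. ERG25 (YGR060W), a C-4 methyl sterol oxidase, was the exception, with all 4 differences between -0.21 and 0.21.

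ERG3 (YLR056W), the C-5 sterol desaturase, had the most negative member difference at 1 h in each strain. Its late values were 0.83 in CECT10094 and 0.68 in Temohaya-MI26 with ethanol, against -0.36 and 0.285 without. With ethanol at 1 h the values were -0.77 in CECT10094 and -1.60 in Temohaya-MI26, and without ethanol 1.07 and 1.12 in those strains. In both strains the value with ethanol was the higher one late and the lower one at 1 h. The fall at 1 h was 2.27 (SE 0.35, adjusted p = 0.0024), and the change was 3.07 higher late than at 1 h (SE 0.49, adjusted p = 0.0042). The late change by itself, 0.80, did not pass (adjusted p = 0.187).

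ERG1 (YGR175C) is squalene epoxidase, the first oxygen-consuming step. Late it stood at 1.09 in CECT10094 and 1.27 in Temohaya-MI26 with ethanol, against 0.12 and 0.49 without. Its values at 1 h were -0.58 in CECT10094 and -0.53 in Temohaya-MI26 with ethanol, against 0.77 and 0.21 without. Its highest values were thus the late ones with ethanol and its lowest those at 1 h with ethanol. ERG1 fell at 1 h by 1.05 (SE 0.31, adjusted p = 0.0397), and its change was 1.92 higher late than at 1 h (SE 0.43, adjusted p = 0.0161).

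ERG11 (YHR007C) encodes the lanosterol demethylase, the cytochrome P450 that azole drugs inhibit. Late it stood at 0.92 in CECT10094 and 0.12 in Temohaya-MI26 with ethanol, against -0.65 and -0.315 without. At 1 h it stood at 0.0015 in CECT10094 and -0.77 in Temohaya-MI26 with ethanol, against 1.07 and 0.16 without. At 1 h CECT10094 was the higher strain both with and without ethanol, by 0.77 and 0.92. The change was 2.00 higher late than at 1 h (SE 0.49, adjusted p = 0.0213), while neither stage passed alone (late 1.00, adjusted p = 0.11, and -0.999 at 1 h, adjusted p = 0.0689). The call for late minus 1 h was lost in 4 of the 8 other settings tried.

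ERG5 (YMR015C), the C-22 desaturase and the other P450 of the pathway, was called late. It stood at 0.54 in CECT10094 and -0.042 in Temohaya-MI26 late with ethanol, against -1.25 and -1.05 without. At 1 h the values were 0.38 in CECT10094 and -0.84 in Temohaya-MI26 with ethanol, against 0.73 and 0.52 without. The late samples without ethanol were the lowest in both strains. ERG5 rose late by 1.40 (SE 0.36, adjusted p = 0.0483), a call that was lost in 6 of the 9 other settings tried, with adjusted p between 0.0176 and 0.239, and its change was 2.25 higher late than at 1 h (SE 0.50, adjusted p = 0.0154).

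**Figure D3:**
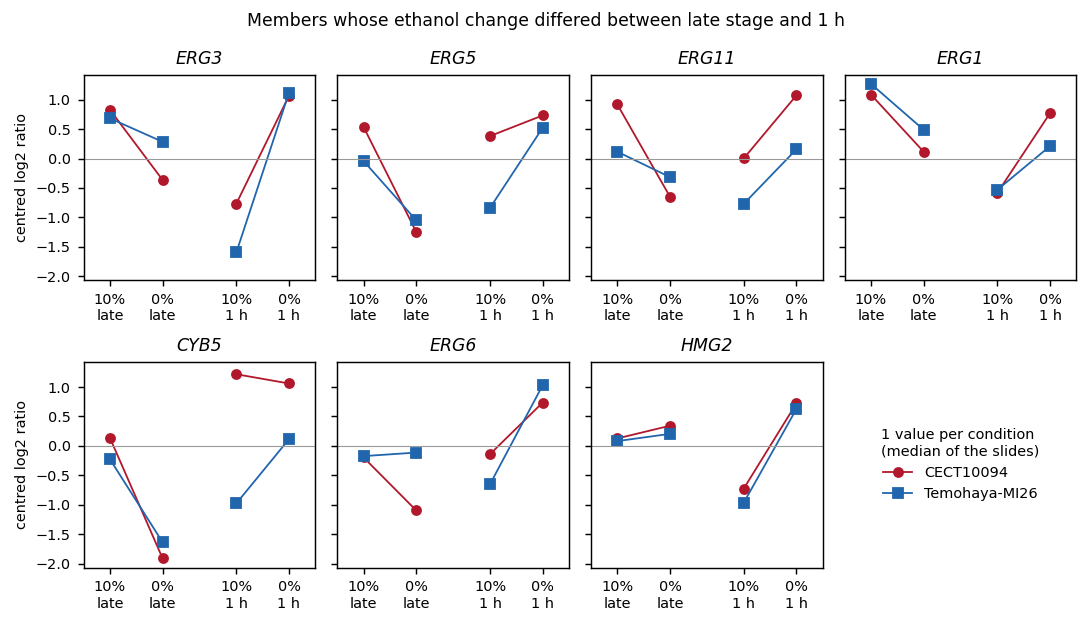
Centred log2 ratio (y axis) of the 7 members whose ethanol change was higher late than at 1 h by limma, in CECT10094 (red circles) and Temohaya-MI26 (blue squares), with lines joining 10 and 0% ethanol of 1 strain and stage. In ERG3, ERG5, ERG11 and ERG1 the lines fall toward 0% ethanol late and climb toward 0% at 1 h in both strains, while HMG2 is nearly flat late.

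Of the other 9 proteins of the sterol branch, ERG6 and ERG2 fell at 1 h and ERG4 fell late by limma. Their late median was 0.345 in CECT10094 and -0.001 in Temohaya-MI26, and their median at 1 h was -0.67 in CECT10094 and -0.57 in Temohaya-MI26.

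ERG6 (YML008C) methylates the sterol side chain, one of the steps that set ergosterol apart from cholesterol. Late it stood at -0.20 in CECT10094 and -0.17 in Temohaya-MI26 with ethanol, against -1.10 and -0.11 without. At 1 h it stood at -0.14 in CECT10094 and -0.65 in Temohaya-MI26 with ethanol, against 0.74 and 1.03 without. The late values with and without ethanol lay close together in Temohaya-MI26 alone. ERG6 fell at 1 h by 1.28 (SE 0.35, adjusted p = 0.0319), and its change was 1.70 higher late than at 1 h (SE 0.50, adjusted p = 0.0439). The latter call was lost in 5 of the 8 other settings tried.

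ERG2 (YMR202W), the C-8 sterol isomerase, had the lowest value of any member in Temohaya-MI26 at 1 h with ethanol. The late values were 0.29 in CECT10094 and -0.12 in Temohaya-MI26 with ethanol, against 0.77 and 0.26 without. At 1 h the values were 0.97 in CECT10094 and -1.605 in Temohaya-MI26 with ethanol, against 1.68 and 0.70 without. In each strain and stage the value with ethanol was the lower one. The fall at 1 h was 1.51 over both strains (SE 0.39, adjusted p = 0.0241).

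ERG4 (YGL012W), the sterol reductase of the last step, was lower with ethanol in all 4 comparisons. Late it stood at -0.415 in CECT10094 and -0.15 in Temohaya-MI26 with ethanol, against 1.28 and 1.03 without, and at 1 h at -0.43 and -0.86 in the same strains with ethanol, against 0.33 and 0.027 without. Its late values without ethanol were the highest of its 8 values. It fell late by 1.44 (SE 0.30, adjusted p = 0.0281), and over the 9 other settings the adjusted p of this change lay between 0.0155 and 0.136.

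Of the remaining members of the branch, ERG9 (squalene synthase) had late differences of 1.04 in CECT10094 and 1.01 in Temohaya-MI26, a common change of 1.02 with an adjusted p of 0.0785. ERG7 (lanosterol synthase) differed by -1.71 in CECT10094 and by -0.056 in Temohaya-MI26 at 1 h. ERG24 (C-14 sterol reductase), ERG26 and ERG27 (C-4 demethylation) and ERG28 (their scaffold) had 16 differences between -1.09 and 1.09. No call was made for these 6 members in the ethanol tests.

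On the centred scale, the 2 electron donors went different ways late. CYB5 (YNL111C), cytochrome b5, stood at 0.14 in CECT10094 and -0.23 in Temohaya-MI26 late with ethanol, against -1.91 and -1.64 without, the lowest values of any member in those samples. The 1 h values were 1.22 in CECT10094 and -0.98 in Temohaya-MI26 with ethanol, against 1.06 and 0.11 without. CYB5 rose late by 1.73 (SE 0.37, adjusted p = 0.029), with adjusted p between 0.0108 and 0.0974 over the 9 other settings, and its change was 2.20 higher late than at 1 h (SE 0.52, adjusted p = 0.0197). NCP1 (YHR042W), the reductase that serves the P450 enzymes, had negative differences throughout on the centred scale. They were -1.11 in CECT10094 and -0.36 in Temohaya-MI26 late, and -0.28 and -1.25 in those strains at 1 h. After quantile normalization the late differences of NCP1 were only -0.057 in CECT10094 and 0.13 in Temohaya-MI26. Without centring, the -0.28 turned positive. NCP1 was not called.

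Of the 2 acyltransferases that form steryl esters, ARE1 fell late, and ARE2 lay past a limit at 1 h in CECT10094. ARE1 (YCR048W) was highest late without ethanol: it stood at 0.73 in CECT10094 and 0.61 in Temohaya-MI26 late with ethanol, against 1.77 and 1.94 without, and between 0.25 and 0.49 in all 4 samples at 1 h. It fell late by 1.18 (SE 0.29, adjusted p = 0.046), but by only 0.32 after quantile normalization (adjusted p = 0.705), and the call was lost in 6 of 9 other settings. ARE1 lies on the right arm of chromosome III, whose 123 ORFs had a median late difference in CECT10094 of -0.362 and of -0.702 in Temohaya-MI26, where the other arms with members had -0.176 to 0.143 and -0.125 to 0.126, and the part of this shift in the ARE1 values was not tested.

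ARE2 (YNR019W), the acyltransferase that makes most steryl ester in aerobic cells, stood late at -0.23 in CECT10094 and 0.26 in Temohaya-MI26 with ethanol, against -0.28 and 0.54 without. At 1 h the values were 1.25 in CECT10094 and -0.26 in Temohaya-MI26 with ethanol, against -0.72 and 0.14 without. The value of CECT10094 at 1 h with ethanol was the highest of the 8. The difference of 1.97 there was not past limits set at 2.58 SD. YEH1 and TGL1, steryl ester hydrolases, had late differences of opposite sign. YEH1 differed by 1.205 in CECT10094 and 0.37 in Temohaya-MI26 late, and TGL1 by -0.45 and -1.06 in those strains.

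UPC2 (YDR213W) and ECM22 (YLR228C), the paired regulators, differed in sign in every comparison. UPC2 was higher with ethanol in all 4, by 0.91 in CECT10094 and 0.34 in Temohaya-MI26 late and by 0.44 and 0.60 in those strains at 1 h. ECM22 was lower in all 4, with differences of -0.87 in CECT10094 and of -0.45 in Temohaya-MI26 late and of -0.23 and -0.27 at 1 h, where the CECT10094 difference turned positive without centring. Neither passed a limit or was called by limma.

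By the median gap over the members, the strains stood farthest apart at 1 h with ethanol. There CECT10094 was the higher strain for 26 of 31 members, with a median gap (CECT10094 minus Temohaya-MI26) of 0.77, while over all ORFs 46.5% were higher in CECT10094 and the median gap was -0.044. The widest gaps were 2.57 for ERG2, 2.52 for ERG13, 2.20 for CYB5 and 2.01 for ERG10. At 1 h without ethanol the median gap was 0.21, late with ethanol 0.15 and late without ethanol -0.13. These gaps are a description of single pairs of values. A gap common to the 4 conditions was called by limma for 0 of 30 members in either direction. That fit takes the 4 conditions as repeats, although they are not repeats of each other. A gap in 1 condition alone counts there as error, so the fit cannot decide on such a gap. Of all ORFs, 0.0187% were called higher and 0.0746% lower in CECT10094. At an unadjusted p under 0.05, with no share of all ORFs counted, 3 members (ERG2, ERG28 and ERG12) were higher. A strain-by-ethanol term common to both stages, added after the values were seen, called 0 of 5359 ORFs (0.00% in each direction), with 4.40% of them and 3 members (ERG20, ERG26 and ARE2) at an unadjusted p under 0.05.

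**Figure D4:**
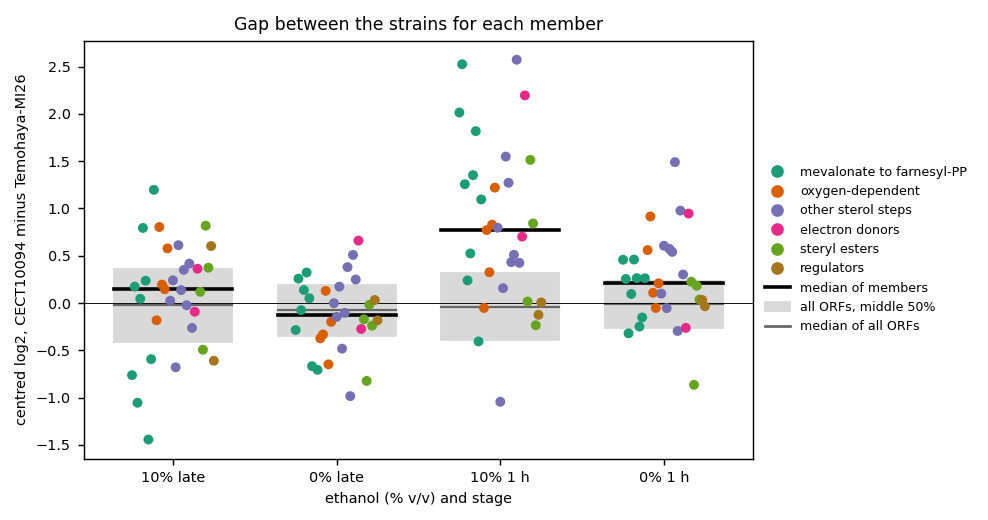
Gap between the strains (CECT10094 minus Temohaya-MI26, centred log2, y axis) for each member, coloured by role, in the 4 conditions; black lines are medians of the members, grey lines and boxes the median and middle 50% of all ORFs. At 1 h with ethanol 26 of 31 members lie above 0 and their median is 0.77.

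What the late samples without ethanol were relative to 1 h bears on every late difference, since both use the same 2 columns. Without ethanol, 9 of 30 members were lower late than at 1 h by limma (CYB5, ERG13, ERG5, YEH1, ERG6, ERG7, ERG8, ERG9 and ERG3), where 10.2% of all ORFs were lower, and 1 was higher (ARE1), where 12.9% were. Late minus 1 h, the change was -2.36 for CYB5 (SE 0.48, adjusted p = 0.0138), -1.94 for ERG13 (SE 0.50, adjusted p = 0.0289), -1.78 for ERG5 (SE 0.31, adjusted p = 0.0094) and 1.50 for ARE1 (SE 0.29, adjusted p = 0.0123). After quantile normalization 0 of these 10 calls were left, with adjusted p between 0.058 and 0.146, and without centring ARE1, CYB5, ERG5 and YEH1 were left. With ethanol, the 5 oxygen-dependent members were all higher late than at 1 h on the centred scale, by a median of 0.92 in CECT10094 (3 of 5 without centring) and 0.89 in Temohaya-MI26. Of all ORFs, 49.2% were higher late with ethanol in CECT10094 and 49.5% in Temohaya-MI26. In the mevalonate segment the same comparison gave a median of -0.64 in CECT10094 and 0.71 in Temohaya-MI26.

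A list of 22 related genes (sterol uptake, transport, acetylation and the branches that leave the pathway, with regulators of oxygen response) gave 21 differences at 1 h and 19 late in both strains. By limma, 1 of 19 rose and 0 fell late, where 2.50% of all ORFs rose and 4.40% fell. At 1 h, 3 of 21 rose and 2 fell, where 10.1% of all ORFs rose and 10.7% fell. At an unadjusted p under 0.05, 3 were higher and 1 lower late. Past a limit were MCR1, the mitochondrial cytochrome b5 reductase, with differences at 1 h of 1.66 in CECT10094 and of 2.91, past the limit, in Temohaya-MI26, and late in CECT10094 NSG2, a regulator of HMG-CoA reductase stability (1.94, and 1.23 in Temohaya-MI26), and ROX1, the repressor of hypoxic genes (1.73, and 0.82 in Temohaya-MI26). NSG2 also rose by limma at both stages, by 1.58 late (adjusted p = 0.0253) and 1.32 at 1 h (adjusted p = 0.0171).

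Since 5 members need oxygen, 11 genes that yeast induces when oxygen is short were read beside them, of which 10 had values. Late, 0 of 10 rose and 2 fell with ethanol by limma (HEM13 and TIR2), where 2.50% of all ORFs rose and 4.40% fell. At 1 h 3 rose and 1 fell, where 10.1% of all ORFs rose and 10.7% fell. At an unadjusted p under 0.05, 0 were higher and 6 lower late. HEM13, the coproporphyrinogen oxidase of haem synthesis, stood late at 0.85 in CECT10094 and 2.09 in Temohaya-MI26 with ethanol, against 3.73 and 5.62 without. At 1 h it lay between -1.003 and -0.256 in all 4 samples. HEM13 was therefore high in the late samples, most of all without ethanol. Not all of the list did so. Without ethanol, 8 of the 10 were higher and 2 lower late than at 1 h in CECT10094, where 52.6% of all ORFs were higher. In Temohaya-MI26, 7 were higher and 3 lower, where 54.8% of all ORFs were higher. TIR2, a cell wall mannoprotein, stood late at 0.94 in CECT10094 and 0.98 in Temohaya-MI26 with ethanol, against 2.61 and 3.79 without. TIR3, of the same family, differed late by -0.55 in CECT10094 and by -2.48 in Temohaya-MI26. OLE1, the fatty acid desaturase, was above the limit at 1 h in CECT10094, with 2.73, against 1.24 in Temohaya-MI26. Over the 10 genes the median late difference was -1.09 in CECT10094 and -0.46 in Temohaya-MI26. The part of oxygen supply in the members' late differences was not tested.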

How the data were processed

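The authors scanned 24 slides, 3 per condition, subtracted a global background in GenePix Pro, removed poor spots by hand, applied a ratio-based normalization in Acuity and took the median over replicates of spots with at least 2 of them. The deposited values used here are these log2 ratios of sample (Cy5) to pool (Cy3), without dye swap, so that dye bias was not measured. A second deposited table, which holds the authors' ethanol differences, was not used. Of 6154 entries in the table used, 2 were controls and were dropped. No genome build is given in the sources used here.

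Each column was centred on its median over all ORFs, which removed -0.475 (CECT10094) and -0.18 (Temohaya-MI26) from the late ethanol differences and 0.37 and -0.09 from those at 1 h. Members were matched by ORF name. limma 3.58.1 (R 4.3.3) was fitted to all 8 columns with lmFit and eBayes: ethanol per stage with strain and stage as blocks (2 residual degrees of freedom, prior 7.39, prior SD 0.326), stage with strain and ethanol as blocks, and strain with stage and ethanol as blocks. P-values were corrected over every ORF tested with the Benjamini-Hochberg method. The tests were tried on simulated data. Members past a limit or called for ethanol were given in every condition and the rest by range or difference; genes of the related and hypoxic lists were named when past a limit. The members and lists were chosen with earlier results of these data known. No promoter or protein sequences were analysed here. Alternatives were other scalings, limits and thresholds, complete ORFs, a robust prior, single-stage fits and leaving out pairs of columns. Each slide came from a separate culture by the study's methods, but the deposited values hold only their median, so no p measures variation between cultures.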

Additional observations from a re-analysis of the deposited data

Results flagged for a closer look

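The ethanol change differed between the late stage and 1 h for 7 members by the test of that difference (limma, adjusted p under 0.05). Late minus 1 h, the change was higher by 3.07 for ERG3, 2.25 for ERG5, 2.20 for CYB5, 2.00 for ERG11, 1.92 for ERG1, 1.70 for ERG6 and 1.35 for HMG2. Over 8 other settings, the call was lost in 6 for HMG2, 5 for ERG6, 4 for ERG11 and 3 for ERG1. It was lost in 2 for ERG5, 2 for CYB5 and 1 for ERG3. Leaving out the Temohaya-MI26 pair at 1 h gave values between 1.28 and 2.63 for these members, with adjusted p between 0.0536 and 0.266, so none of the 7 passed without it. Late and 1 h also differ in hours of culture, and the late hours differ with ethanol. No condition has 4 values, so no sample could be compared with others of its group.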

How the results depend on the processing

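Calls were lost without centring, after quantile normalization and without single pairs of columns, and each late call was lost in several settings. Without centring, limma called 0 members higher and 2 lower late, 0 higher and 2 lower at 1 h, 1 higher and 2 lower (ARE1 and TGL1) for late minus 1 h, and 4 higher and 3 lower for the stages without ethanol. After quantile normalization it called 0 higher and 0 lower late, 4 lower at 1 h, 5 higher for late minus 1 h, and 0 higher and 0 lower for the stages without ethanol. Over all ORFs, limma called 137 higher and 241 lower late (48 and 384 without centring, 35 and 24 after quantile normalization), 590 and 621 at 1 h (614 and 400, 410 and 514), 507 and 485 for late minus 1 h (239 and 750, 388 and 272), and 717 and 568 for the stages without ethanol (1199 and 267, 21 and 57). With the 4 columns of a stage alone, 0 members rose and 0 fell late. At an adjusted p under 0.10, 4 rose late, 2 were lower for late minus 1 h and 4 were higher late without ethanol. With ORFs complete in all 8 columns, 1 was lower for late minus 1 h and 2 were higher late without ethanol. Leaving out 1 pair of columns gave 0 to 9 members that fell at 1 h, 0 to 4 that rose and 0 to 1 that fell late, and 0 to 8 higher and 0 to 1 lower for late minus 1 h. No late call was left when either pair at 1 h or the CECT10094 late pair was left out, and without the Temohaya-MI26 late pair CYB5, ERG4 and ERG5 remained. With limits at 2.58 SD, 0 members passed at 1 h and 1 passed late in CECT10094 (ERG20). With limits from the median absolute deviation, 1 lay below late in CECT10094, 2 above and 1 below late in Temohaya-MI26, and 3 below at 1 h in CECT10094. Beyond 1 and -1, the counts were 9 above and 6 below late in CECT10094, 4 above and 3 below late in Temohaya-MI26, 5 below at 1 h in CECT10094 and 12 below at 1 h in Temohaya-MI26. Late in Temohaya-MI26, 1 member lay above its limit after quantile normalization and 1 among complete ORFs. Shares of all ORFs were not counted for the other limits, an adjusted p under 0.10, complete ORFs, single-stage fits or fits without a pair. The counts of members in those settings have no background. Median differences moved without centring to -0.13 late and 0.145 at 1 h for all members in CECT10094, to -0.691 late and 0.301 at 1 h for the mevalonate segment, to 0.718 late and -0.699 at 1 h for the oxygen-dependent members (1.72 late after quantile normalization) and to -0.675 late and 0.577 at 1 h for the steryl ester genes, all in CECT10094. No single call changed sign in any setting. The promoter and protein comparison that had been planned was not run. Neither spot signal nor background is in the values used here, so their limit on dim genes is unknown.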
